A study of Mus musculus with 212 samples.

Results

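The Period genes Per1, Per2 and Per3 are 3 of the 47631 genes in a table of transcript levels from cultured mouse skin fibroblasts. They were taken by their gene identifiers and followed through 210 of 212 RNA-seq libraries. The cells were C57BL/6 mouse skin fibroblasts, either wild type (WT) or without the clock gene Bmal1 (Bmal1-/-, gene symbol Arntl). All cultures of both genotypes were confluent, received 100 nM dexamethasone, a synthetic glucocorticoid that sets fibroblast clocks to a common phase, for 15 min, and were sampled in constant conditions from 48 h after that treatment. The labels sort the libraries into 5 courses per genotype with 1 library per time point. The courses called AM and PM have 17 libraries each, every 3 h from circadian time label CT0 to CT48, and the courses at 37, 32 and 27 °C have 24 each, every 2 h from CT0 to CT46. The labels say neither what AM and PM stand for nor how the Bmal1-/- allele was made, nor whether the cells are a line, a clone or a pool, and they give the AM and PM courses no temperature of their own. The labels name 3 wells per time point but do not say that time points or wells came from separate preparations. The p-values given here therefore rest on the scatter of single libraries around each course, and a difference between courses cannot be told apart from one between cultures or runs. In bulk RNA, less transcript per cell and fewer expressing cells cannot be told apart either.

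PER proteins are the negative limb of the mammalian circadian clock. The transcription factors CLOCK and BMAL1 bind E-box DNA elements and switch on Per and Cry genes, and PER and CRY proteins then enter the nucleus and repress CLOCK and BMAL1 until casein kinases and ubiquitin ligases have removed them. Per1 and Per2 are also acute response genes with inputs from glucocorticoid receptor, CREB and, for Per2, heat shock factor 1, whereas Per3 is often read as an output of the fibroblast clock.

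Estimated sequencing depth, read from the FPKM value that 1 read gives, was 9.9 M in the shallowest library (WT AM CT36), 32.1 M in the deepest and 23.3 M at the median. The table holds no counts, so no counting intervals were computed. All 10 fibroblast markers had a median of at least 1 FPKM in both genotypes, and summed keratinocyte markers reached at most 5.69 FPKM and summed endothelial markers at most 6.28. Summed macrophage and leukocyte markers reached 16.2 FPKM in WT and 20.7 in Bmal1-/-, with 2 and 1 of 5 at a median of at least 1 FPKM. Summed melanocyte markers ran from 2.72 to 21.6 FPKM in WT and from 0.804 to 2.60 in Bmal1-/-, with 1 of 4 at a median of at least 1 FPKM in each genotype and 0 of 4 at 0 throughout. Summed adipocyte markers reached 0.582 FPKM in WT and 10.4 in Bmal1-/-. The part of such cells in the results was not tested. Reads on Arntl were present in both genotypes, with a genotype difference of -0.13 ± 0.03 (SE, log2) in AM, 0.03 ± 0.03 in PM, -0.04 ± 0.03 at 37 °C, 0.20 ± 0.03 at 32 °C and 0.62 ± 0.03 at 27 °C, and as the labels do not say which exons the allele lacks, this checks nothing. Both CT14 libraries of the 27 °C courses were left out, because their values go against their labels, in Cdkn1a and Hoxa9 (given below) as well as in Per3. In the library labelled WT, Per3 stood at 2.84 FPKM, below the 11.6 to 15.2 of the other WT libraries of that course, and in the library labelled Bmal1-/- it stood at 13.6 FPKM, above 2.23 to 3.53.

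The 3 genes lie on separate chromosomes of GRCm38. Per1 (ENSMUSG00000020893) spans chr11:69095217-69109960 on the plus strand with 6 annotated transcripts. Per2 (ENSMUSG00000055866) spans chr1:91415982-91459324 on the minus strand and has 2 transcripts, a coding one of 5833 bases and a processed transcript of 231 bases. Per3 (ENSMUSG00000028957) spans chr4:151003652-151044665 on the minus strand with 5 transcripts, inside the outer bounds of Camta1 on the same strand, of which 0 exons fall within it. RefSeq start-site windows (250 bases before to 50 bases after a start, GRCm38.p6) matched 2 of the 3 genes, Per1 and Per3, and are shown as a description. Per2 had no window, and whether the letters in these windows bear on the genotype differences below was not tested. The Per1 windows are chr11:69098699-69098998 (window 1) and chr11:69099902-69100201 (window 2), plus strand, and the Per3 window is chr4:151044616-151044915, minus strand. Capitals mark the E-box CACGTG, the D-box TTATGTAA or its variant TTATGCAA, and the CRE core TGACG.

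Per1 window 1: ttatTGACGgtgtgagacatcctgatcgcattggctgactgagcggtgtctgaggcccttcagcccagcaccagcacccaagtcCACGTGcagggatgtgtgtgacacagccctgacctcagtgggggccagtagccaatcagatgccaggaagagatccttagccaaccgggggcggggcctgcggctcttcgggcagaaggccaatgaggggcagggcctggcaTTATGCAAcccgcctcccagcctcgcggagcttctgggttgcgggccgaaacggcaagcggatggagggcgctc

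Per1 window 2: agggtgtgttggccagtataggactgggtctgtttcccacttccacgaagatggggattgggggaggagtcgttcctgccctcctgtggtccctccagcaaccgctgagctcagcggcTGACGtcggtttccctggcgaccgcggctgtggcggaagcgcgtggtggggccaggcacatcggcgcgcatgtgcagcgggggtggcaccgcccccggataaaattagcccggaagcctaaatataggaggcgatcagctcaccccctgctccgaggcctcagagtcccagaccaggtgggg

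Per3 window: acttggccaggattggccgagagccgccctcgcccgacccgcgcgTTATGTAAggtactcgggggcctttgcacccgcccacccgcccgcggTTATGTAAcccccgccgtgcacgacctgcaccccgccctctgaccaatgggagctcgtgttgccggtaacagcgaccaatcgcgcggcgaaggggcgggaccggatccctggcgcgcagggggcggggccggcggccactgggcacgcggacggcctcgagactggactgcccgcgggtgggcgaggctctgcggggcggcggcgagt

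Both strands were searched, and positions count the first base of a match from the start site. Window 1 of Per1 held 1 E-box at -166, a sequence present in 7.15% of the 32851 windows of that length, 1 D-box variant at -24 (0.743% of windows) and 1 CRE core at -246 (20.8%). Window 2 of Per1 held 1 CRE core at -132. The Per3 window held 2 D-boxes, the element that DBP, TEF and HLF bind, at -205 and -158 (0.938% of windows), and 0 copies of CACGTG. None of the 3 windows held the E-box variant CACGTT (4.68%), the full CRE TGACGTCA (1.79%, which contains the core), the glucocorticoid element core AGAACA (19% of windows), TATAAA (13.6%) or the heat shock pattern GAANNTTC (7.86%). The letters CCAAT (37.4%) occurred 3 times in window 1, 1 time in window 2 and 3 times in the Per3 window. These matches describe letters in a window and were not tied to binding.

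Per1 was the most abundant Period transcript in all 10 courses on the FPKM scale, which is scaled to transcript length. In WT at 37 °C it made up 64.0 ± 5.7% (SD, n = 24) of the summed Period FPKM, Per3 28.2 ± 4.57% and Per2 7.80 ± 1.36%. In Bmal1-/- at 37 °C Per1 held 79.8 ± 3.11%, Per2 15.0 ± 2.84% and Per3 5.29 ± 0.986%. Per3 was thus the middle member in WT, and the lowest in Bmal1-/- at 37 °C.

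Per1, which encodes a core repressor, ran from 12.2 to 19.9 FPKM (median 15.0) in WT AM, from 11.95 to 21.1 (17.2) in WT PM, from 11.6 to 14.9 (13.6) in WT at 37 °C, from 14.8 to 24.9 (18.7) at 32 °C and from 26.4 to 47.0 (34.4) at 27 °C. In Bmal1-/- it ran from 19.6 to 27.2 FPKM (22.5) in AM, from 14.9 to 23.9 (18.6) in PM, from 11.2 to 20.2 (16.2) at 37 °C, from 18.4 to 28.7 (23.4) at 32 °C and from 28.7 to 44.1 (35.0) at 27 °C. By mean level the 27 °C courses of both genotypes came first and differed from each other by less than the larger SD, Bmal1-/- at 32 °C and in AM followed, and WT at 37 °C was last. The gap between WT at 27 °C and the course ranked next, 10.98 FPKM, exceeded the larger SD of 5.5 FPKM. Most neighbours lower in the order did not differ by more than their SD.

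Per2, the other core repressor, had the lowest mean of the 3 in each WT course. It ran from 1.17 to 7.30 FPKM (median 2.35) in WT AM, from 1.68 to 5.17 (2.75) in WT PM, from 0.900 to 2.59 (1.61) at 37 °C, from 1.37 to 4.91 (1.99) at 32 °C and from 2.15 to 9.80 (2.67) at 27 °C. In Bmal1-/- the ranges were 3.44 to 8.88 FPKM (4.18) in AM, 3.63 to 8.50 (4.12) in PM, 1.97 to 5.38 (2.90) at 37 °C, 1.86 to 3.10 (2.25) at 32 °C and 1.06 to 4.38 (1.38) at 27 °C. Bmal1-/- in PM and AM had the highest means and WT at 37 °C the lowest, and no 2 neighbours among the 10 courses differed by more than the larger SD.

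Per3 split by genotype. It ran from 2.63 to 11.2 FPKM (median 5.54) in WT AM, from 5.84 to 14.4 (9.22) in WT PM, from 3.46 to 9.63 (5.52) at 37 °C, from 6.38 to 12.2 (7.89) at 32 °C and from 11.6 to 15.2 (13.3) at 27 °C. In Bmal1-/- it ran from 0.811 to 1.75 FPKM (1.28) in AM, from 0.998 to 1.85 (1.51) in PM, from 0.539 to 1.66 (1.09) at 37 °C, from 1.42 to 2.34 (1.72) at 32 °C and from 2.23 to 3.53 (2.70) at 27 °C. The 5 WT courses held the 5 highest means, and the lowest of those, WT AM at 5.93 ± 2.32 FPKM (SD, n = 17), exceeded the next, Bmal1-/- at 27 °C at 2.79 ± 0.378 (SD, n = 23), by more than the larger SD.

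**Figure D1:**
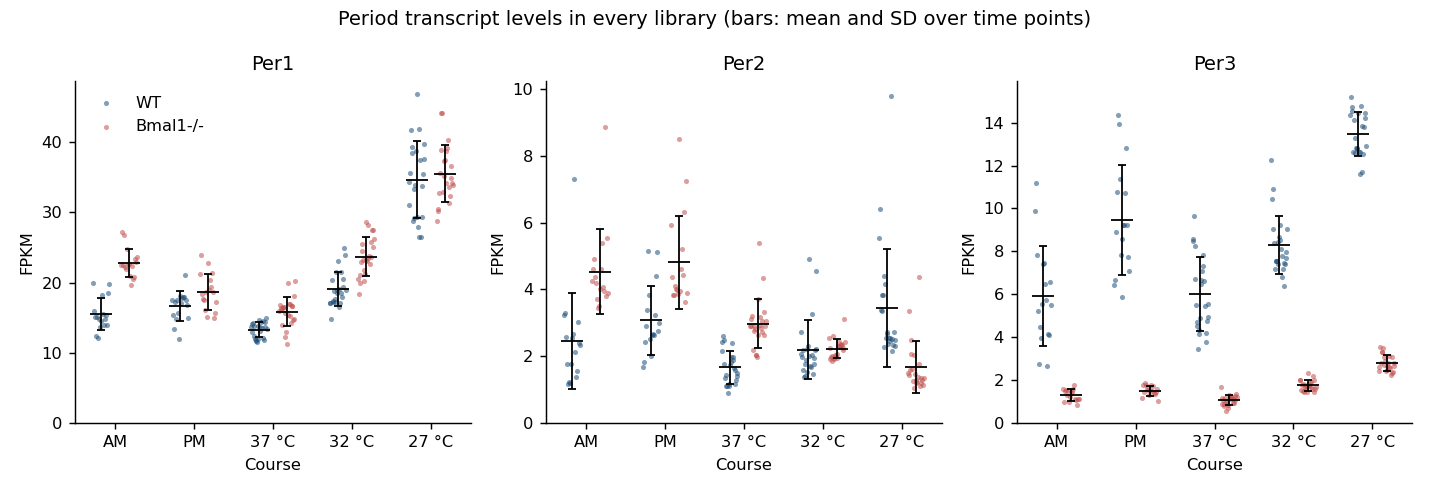
FPKM of Per1, Per2 and Per3 in each library (points, 17 to 24 per course) for the 5 courses of WT (blue) and Bmal1-/- (red), with the mean and SD over time points in black. With CT14 at 27 °C left out, Per3 does not overlap between genotypes in any course. Per1 is highest at 27 °C in both genotypes, and Per2 has single libraries far above the others.

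The genotype comparison asked how Period transcript levels differed between Bmal1-/- and WT cultures, apart from rhythm. The cultures also differed in other genes. At 27 °C, without CT14, Cdkn1a ran from 3.07 to 7.12 FPKM in WT and from 97.8 to 136 in Bmal1-/-. Hoxa9 ran there from 31.8 to 48.5 FPKM in WT and from 0 to 0.114 in Bmal1-/-. Whether the Period differences follow from the loss of Bmal1 was not tested. Per3 was lower in Bmal1-/- at every time point used in all 5 courses, and its ranges did not overlap in any of them. At 27 °C this rests on leaving out the CT14 pair, as its Per3 values (2.84 FPKM labelled WT, 13.6 labelled Bmal1-/-) make the ranges overlap. The share of all genes whose ranges do not overlap was not computed. The Per3 mean in Bmal1-/- was 0.218 of the WT mean in AM, 0.159 in PM, 0.176 at 37 °C, 0.21 at 32 °C and 0.207 at 27 °C. On the log2(FPKM + 1) scale, which understates changes at such low levels, the differences were -1.50 ± 0.06 (SE) in AM, -2.05 ± 0.06 in PM, -1.74 ± 0.04 at 37 °C, -1.75 ± 0.04 at 32 °C and -1.93 ± 0.04 at 27 °C. All 5 were called (limma, adjusted p under 0.05 and at least 2-fold), with adjusted p between 5.14e-82 and 4.86e-31. Of all genes tested, the same rule called 14.6% in AM, 15.6% in PM, 13.9% at 37 °C, 14.5% at 32 °C and 13.5% at 27 °C, so a call on its own is common here and 1 of 3 Period genes was called in each.

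Per1 and Per2 moved the other way in AM and PM and at 37 °C, by less than 2-fold on the log2(FPKM + 1) scale. Per1 was higher in Bmal1-/- at 17 of 17 time points in AM (0.54 ± 0.05, log2), where the ranges of 12.2 to 19.9 and 19.6 to 27.2 FPKM barely overlapped, and at 24 of 24 at 32 °C (0.30 ± 0.05). Its difference was 0.15 ± 0.05 in PM (13 of 17 time points), 0.23 ± 0.05 at 37 °C (21 of 24) and 0.05 ± 0.05 at 27 °C (9 of 23, approximate 95% interval -0.04 to 0.14, adjusted p = 0.331 by limma). Per1 was thus near WT level at 27 °C.

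Per2 was higher in Bmal1-/- at 16 of 17 time points in AM (0.76 ± 0.10, log2), 15 of 17 in PM (0.50 ± 0.10) and 24 of 24 at 37 °C (0.58 ± 0.08). At 32 °C the difference was 0.05 ± 0.08 (16 of 24, approximate 95% interval -0.11 to 0.20, adjusted p = 0.572 by limma), and at 27 °C Per2 was lower in Bmal1-/- at 23 of 23 time points (-0.70 ± 0.08). None of these reached 2-fold on the log2(FPKM + 1) scale. With a pseudocount of 0.1 FPKM in place of 1 the AM difference did, at 1.01, and the 27 °C difference was -0.98. The Per2 mean in Bmal1-/- was 1.854 of the WT mean in AM, 1.567 in PM, 1.793 at 37 °C and 1.011 at 32 °C. At 27 °C it was 0.4845 by means, past 2-fold, and 0.5173 by medians. The adjusted p was below 0.05 for Per2 in AM, PM, 37 °C and 27 °C, the largest being 1.25e-05 in PM. The 23 of 23 time points at 27 °C leave out the CT14 pair. There Per2 stood at 1.78 FPKM in the library labelled WT and 5.78 in that labelled Bmal1-/-. With the pair included the 27 °C difference was -0.62.

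The temperature comparison asked how the 3 genes respond to cooler culture. Over all genes tested the median moved by 0.21 (log2) from 37 to 27 °C in each genotype and by 0.13 from 37 to 32 °C, so changes are best read against those shifts. Per1 rose at 27 °C at 23 of 23 time points in both genotypes and its ranges did not overlap those at 37 °C. The difference was 1.31 ± 0.05 in WT and 1.12 ± 0.05 in Bmal1-/- (limma adjusted p 7.84e-54 and 4.36e-47). Per3 rose likewise at 23 of 23 time points in both, without overlap once the CT14 pair was left out, by 1.09 ± 0.04 in WT and 0.89 ± 0.04 in Bmal1-/-. The latter was short of 2-fold on this scale, although its mean level was 2.64 times that at 37 °C. The share of all genes without overlap between temperatures was not computed. With median-of-ratios scaling the Per1 change was 1.05 in WT and 0.87 in Bmal1-/- and the Per3 change 0.85 and 0.72, so only Per1 in WT stayed past 2-fold. The rule called 13.6% of all genes in WT, with 2 of 3 Period genes, and 11.7% in Bmal1-/-, with 1 of 3.

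Per2 took opposite directions in the genotypes. In WT it was higher at 27 than at 37 °C at 23 of 23 time points (0.69 ± 0.08), and in Bmal1-/- it was higher at 3 of 23 (-0.60 ± 0.08). The difference between these changes was -1.29 ± 0.11 (log2, adjusted p = 3.58e-20, limma), and 4.43% of all genes were called in this contrast. It was -1.29 without the 10 libraries of isolated high Per2 values described below. The same contrast gave -0.19 ± 0.07 for Per1 (adjusted p = 0.00952) and -0.20 ± 0.05 for Per3 (adjusted p = 5.51e-04), both under 2-fold, and for Per3 the sign turned to 0.14 with a pseudocount of 0.1 FPKM. Per2 mean levels were 1.66 ± 0.493 FPKM (SD, n = 24) at 37 °C and 3.45 ± 1.77 (n = 23) at 27 °C in WT, against 2.98 ± 0.729 and 1.67 ± 0.787 in Bmal1-/-.

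At 32 °C the changes had the same directions and were smaller. Per1 stood at 0.49 ± 0.05 above 37 °C in WT and 0.55 ± 0.05 in Bmal1-/- (24 of 24 time points each), and Per3 at 0.44 ± 0.04 (22 of 24) and 0.42 ± 0.04 (24 of 24). Per2 stood at 0.25 ± 0.08 in WT (17 of 24) and -0.29 ± 0.08 in Bmal1-/- (higher at 3 of 24). The genotype difference in the 32 °C change was -0.54 ± 0.11 for Per2 (limma adjusted p = 1.53e-05). None of the 3 genes reached 2-fold at 32 °C, where 3.29% of all genes did in WT, 2.71% in Bmal1-/- and 1.49% in the difference between them.

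**Figure D2:**
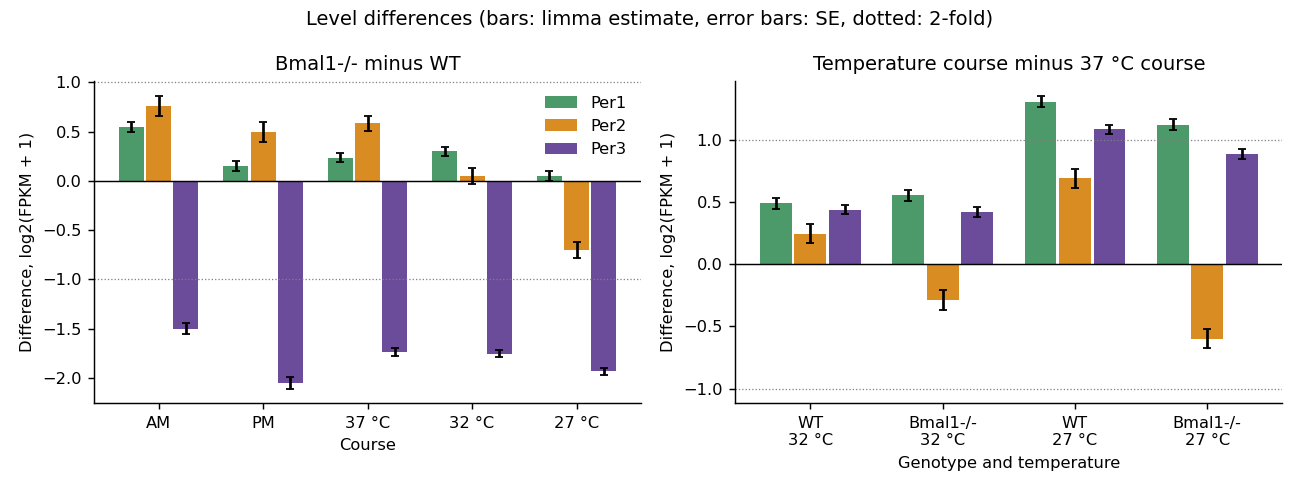
Differences in level on the log2(FPKM + 1) scale with their SE, between genotypes in each course (left) and between the cooler courses and 37 °C (right), for Per1 (green), Per2 (orange) and Per3 (purple), with dotted lines at 2-fold. Per3 is at or below -1.50 in all genotype comparisons, and the Per2 bars change sign between genotypes on the right.

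The rhythm comparison asked whether the 3 transcripts follow a 24 h cosine in each course. Amplitudes are given from mid-level to peak on the log2(FPKM + 1) scale. In WT AM, Per3 fell from 11.2 FPKM at CT3 to 2.72 at CT12, returned to 7.43 at CT27 and fell to 2.63 at CT36. In WT PM it rose from 6.43 FPKM at CT0 to 14.4 at CT12, fell to 5.84 at CT24 and rose again to 12.8 at CT39. The AM and PM courses were high where the other was low. The fitted amplitude was 0.54 ± 0.06 with a peak at CT1.9 ± 0.45 h in AM and 0.43 ± 0.06 at CT13.2 ± 0.57 h in PM, a peak-to-trough fold of 2.11 and 1.82 (limma adjusted p = 1.82e-08 and 4.32e-06).

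Per2 in WT followed with lower levels. In AM it was at 3.29 FPKM at CT3, 1.17 at CT12, 2.65 at CT27 and 1.39 at CT36, apart from 7.30 at CT30. In PM it was at 1.68 FPKM at CT0, 5.17 at CT15, 2.02 at CT24 and 5.12 at CT42. The amplitude was 0.49 ± 0.11 at CT3.5 ± 0.8 h in AM (adjusted p = 0.0111) and 0.38 ± 0.10 at CT14.9 ± 1.1 h in PM (adjusted p = 0.0487). Without CT30 and the other isolated high values the AM amplitude was 0.37 (adjusted p = 0.00396) and the PM amplitude stayed at 0.38 (adjusted p = 0.00123). Those libraries were picked by their high Per2, and WT PM held 0 of them. Leaving them out lowers the Per2 scatter by choice, so the smaller adjusted p adds no support for a rhythm.

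Per1 in WT had its highest AM value, 19.9 FPKM, at CT0 and its lowest, 12.2, at CT15, and the values at CT45 and CT48 were again high, at 18.6 and 19.8. Its amplitude of 0.17 ± 0.05 at CT1.1 ± 1.3 h did not pass the threshold (adjusted p = 0.0889), nor did 0.07 ± 0.05 in PM (adjusted p = 0.699). The test called 3.85% of all genes in WT AM and 5.61% in WT PM, and Per2 and Per3 in both. The call on Per2 in PM lay at the threshold. It was lost when any 1 of 43 of the 68 libraries was left out, with the largest adjusted p, 0.179, without WT PM CT15. Many of these libraries were outside the WT PM course. Without any of those the amplitude stayed at 0.38 and the adjusted p was at most 0.0519. These refits kept the p-values of all other genes from the full fit.

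**Figure D3:**
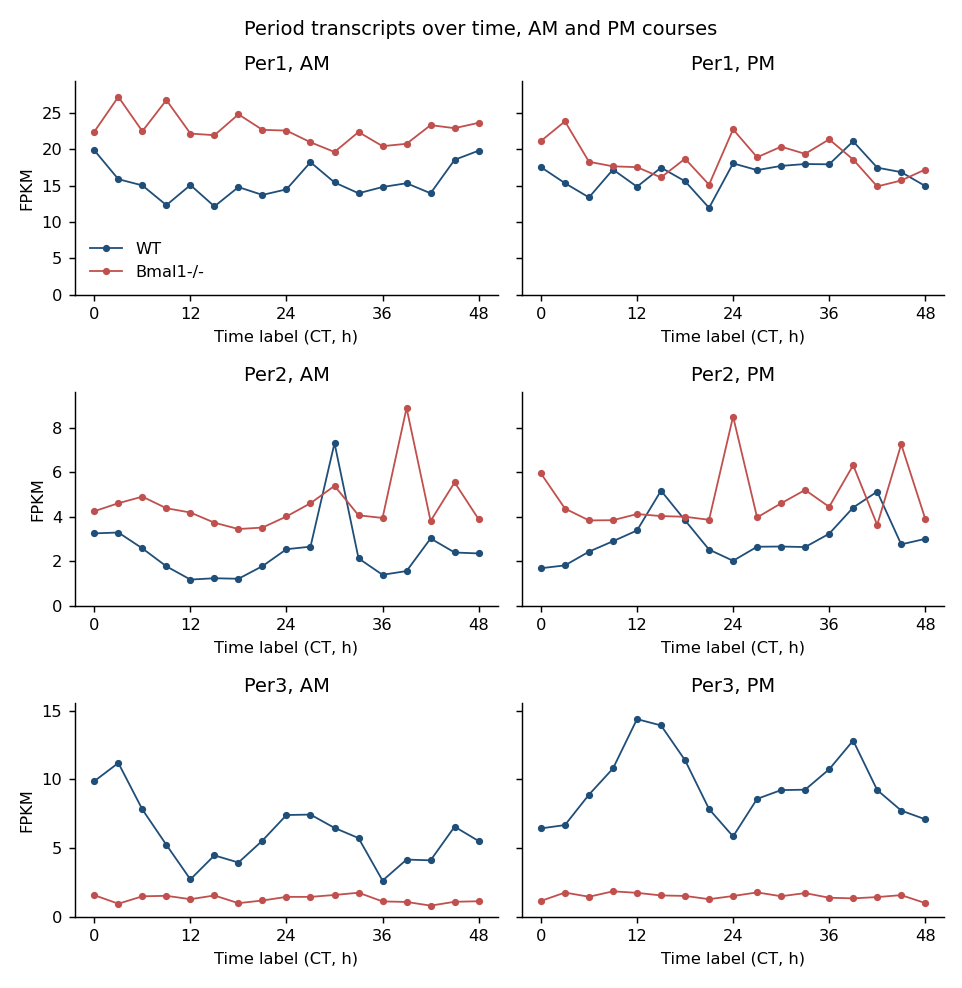
FPKM against circadian time label for Per1, Per2 and Per3 in the AM (left) and PM (right) courses, WT in blue and Bmal1-/- in red, 1 library per point. WT Per3 peaks near CT3 in AM and CT12 in PM while Bmal1-/- Per3 stays under 2 FPKM, and single Per2 libraries reach 7.25 to 8.88 FPKM.

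Peak labels in PM lay 11.2 ± 0.72 h after those in AM for Per3 and 11.4 ± 1.3 h for Per2, compared with 11.9 ± 0.39 h for Dbp, a clock output gene that encodes a D-box factor. The contrast of cosine and sine terms between AM and PM was called in WT for Per3 (0.97 ± 0.08, limma adjusted p = 3.36e-12) and Per2 (0.87 ± 0.15, adjusted p = 6.54e-04), and stood at 0.24 ± 0.07 for Per1 (adjusted p = 0.118). It called 2.97% of all genes in WT. In Bmal1-/- it called 0.368% of all genes and 0 of the 3, with adjusted p between 0.58 and 0.856.

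In WT at 37 °C Per3 fell from 9.63 FPKM at CT4 to 3.46 at CT16, rose to 7.81 at CT30 and fell to 3.79 at CT38. Its amplitude was 0.44 ± 0.04 with a peak at CT4.3 ± 0.32 h (limma adjusted p = 2.10e-15). Per2 went from 2.59 FPKM at CT4 to 0.900 at CT18 and back to 2.39 at CT30, with an amplitude of 0.31 ± 0.09 at CT4.7 ± 0.95 h (adjusted p = 0.0408). Per1 moved between 11.6 and 14.9 FPKM with an amplitude of 0.11 ± 0.05 (adjusted p = 0.336). The test called 4.92% of all genes and 2 of the 3. The Per2 call was lost without any 1 of 7 libraries of that course, CT4, CT6, CT12, CT16, CT18, CT20 or CT30, with adjusted p up to 0.0822.

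The Per3 amplitude in WT was lower in the cooler courses. At 32 °C Per3 fell from 12.2 FPKM at CT0 to 7.19 at CT10, reached 9.23 at CT24 and stood at 6.38 at CT36. The amplitude was 0.19 ± 0.04 with a peak at CT0.1 ± 0.8 h (limma adjusted p = 0.00752), where 0.253% of all genes were called, and the call was lost with a pseudocount of 0.1 FPKM (adjusted p = 0.122). At 27 °C Per3 stayed within 11.6 to 15.2 FPKM, with an amplitude of 0.03 ± 0.04 (adjusted p = 0.952, with 2.15% of all genes called). The contrast of cosine and sine terms with 37 °C was called for Per3 at 32 °C (0.39 ± 0.06, adjusted p = 4.19e-06, 0.0767% of all genes) and at 27 °C (0.43 ± 0.06, adjusted p = 4.87e-07, 1.53% of all genes), and covers a change of amplitude or of peak time. For Per2 the contrast was 0.33 ± 0.12 at 32 °C (adjusted p = 0.631) and 0.35 ± 0.12 at 27 °C (adjusted p = 0.196). Without WT 27C CT34, a library of high Per2 whose removal lowers the scatter, the latter was 0.42 (adjusted p = 0.0437). Per2 amplitudes were 0.27 ± 0.08 at 32 °C (adjusted p = 0.325) and 0.07 ± 0.08 at 27 °C, and Per1 amplitudes 0.07 ± 0.05 at both.

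**Figure D4:**
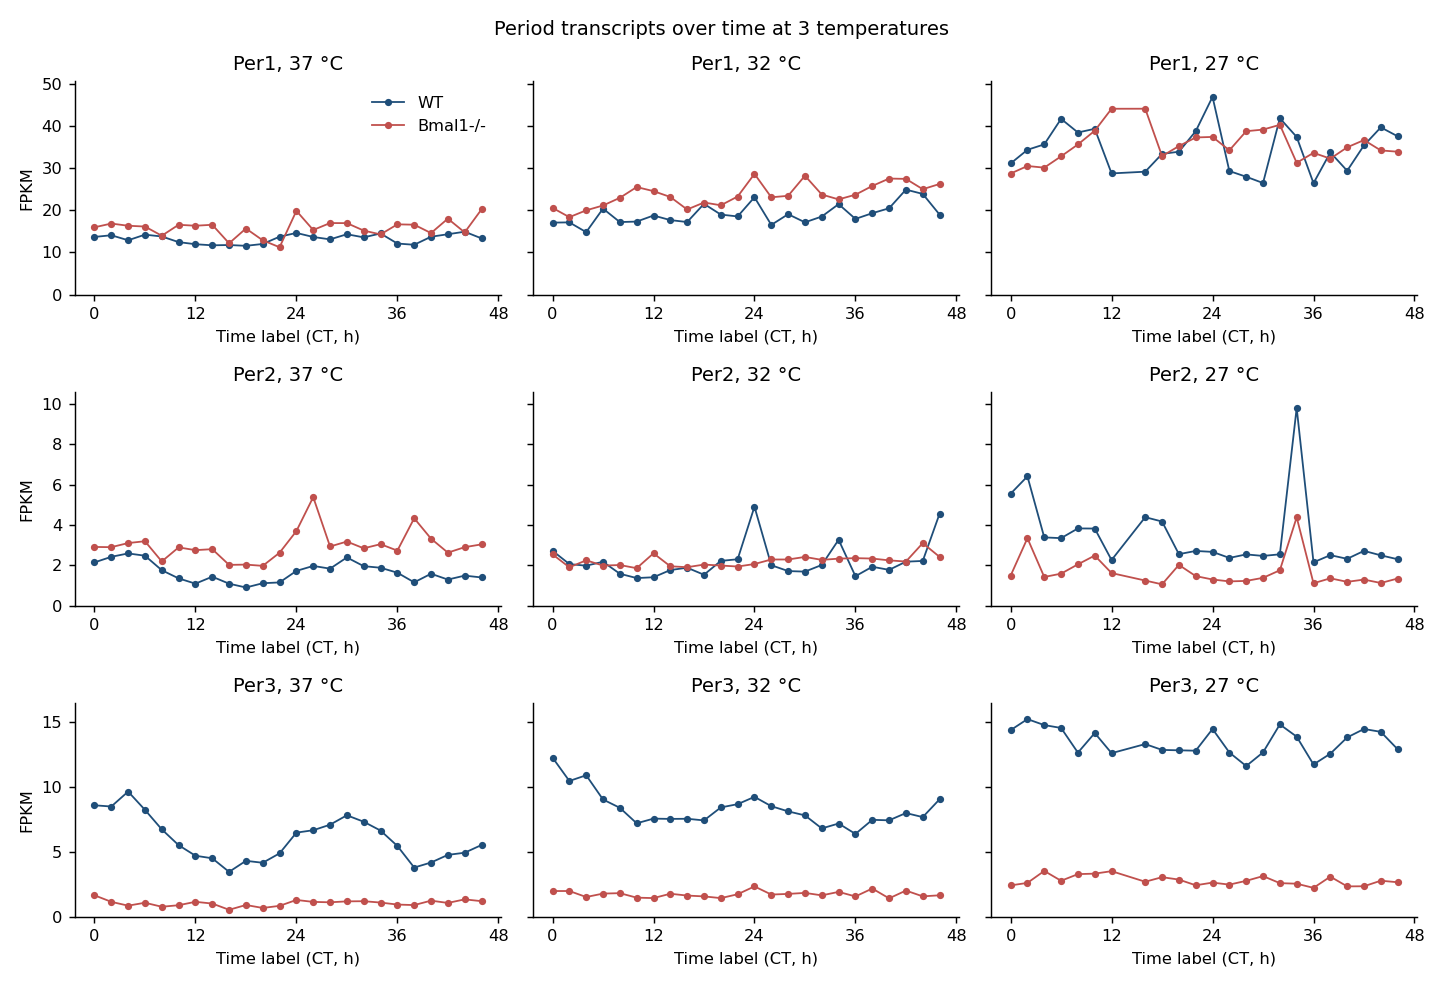
FPKM against circadian time label for the 3 genes at 37, 32 and 27 °C, WT in blue and Bmal1-/- in red, 1 library per point, with CT14 at 27 °C left out. WT Per3 swings between 3.46 and 9.63 FPKM at 37 °C and stays between 11.6 and 15.2 at 27 °C, and Per1 rises toward 27 °C in both genotypes.

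In Bmal1-/- no Period gene passed the rhythm test in any of the 5 courses. The test called 3.4% of all genes in AM, 3.02% in PM, 8.46% at 37 °C, 2.06% at 32 °C and 9.85% at 27 °C. Per3 amplitudes ran from 0.05 ± 0.04 at 32 °C to 0.13 ± 0.06 in AM, Per2 amplitudes from 0.03 ± 0.08 at 32 °C to 0.17 ± 0.09 at 37 °C and Per1 amplitudes from 0.03 ± 0.05 at 32 °C to 0.13 ± 0.06 in PM. With a pseudocount of 0.1 FPKM, Per3 at 37 °C passed with an amplitude of 0.20 at CT2.9 (limma adjusted p = 0.0319), where its values lie near 1 FPKM. The lowest adjusted p among the 15 tests at the pseudocount of 1 was 0.154, also for Per3 at 37 °C.

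The difference in rhythm between genotypes was called for Per3 in AM (0.52 ± 0.08, limma adjusted p = 6.42e-04) and at 37 °C (0.35 ± 0.06, adjusted p = 1.90e-04). In PM it was 0.39 ± 0.08 (adjusted p = 0.0988), and it passed without WT AM CT12, WT PM CT27 or Bmal1-/- PM CT48, at adjusted p of 0.0479, 0.0386 and 0.0483. WT AM CT12 belongs to neither PM course, and without it the contrast stayed at 0.39 and only the scatter changed. At 32 and 27 °C it was 0.15 ± 0.05 and 0.09 ± 0.05 (adjusted p = 1 and 0.645). For Per2 it was 0.47 ± 0.15 in AM, 0.45 ± 0.14 in PM and 0.14 ± 0.12 at 37 °C (adjusted p = 0.297, 0.434 and 0.711), so a loss of the Per2 rhythm in Bmal1-/- was not shown by this test. Few genes passed it in AM, in PM and at 32 °C, and more did at 37 °C. The shares were 0.113% in AM, 0.0751% in PM, 6.1% at 37 °C, 0.023% at 32 °C and 1.5% at 27 °C.

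**Figure D5:**
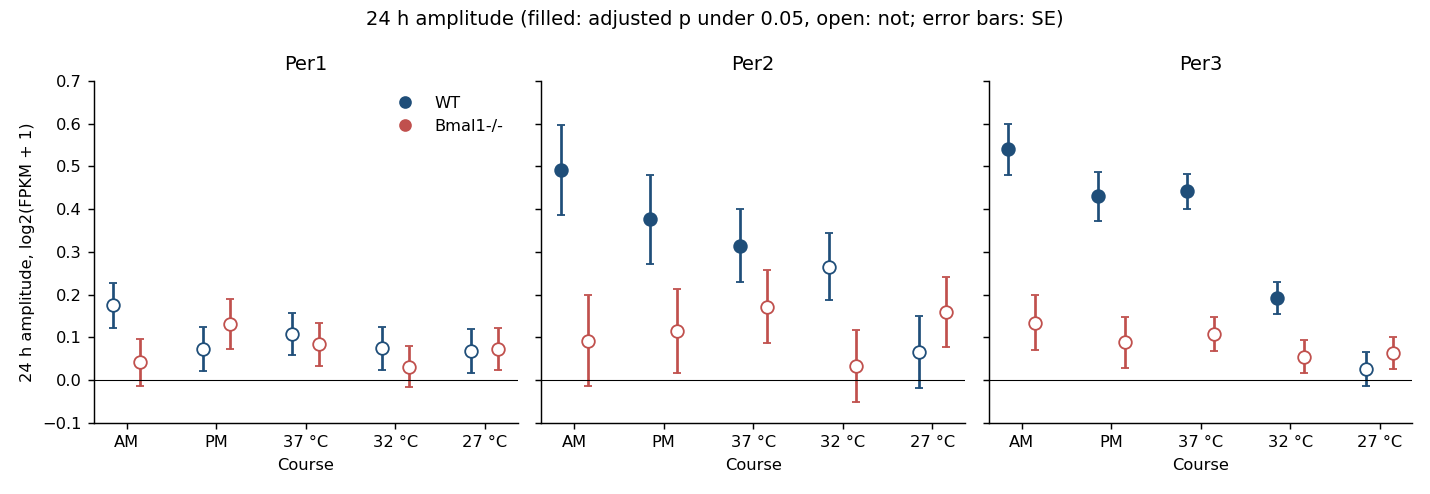
Fitted 24 h amplitude with its SE for each gene in the 5 courses, WT in blue and Bmal1-/- in red, filled where the adjusted p was under 0.05 and open where not. Filled points are Per3 in WT AM, PM, 37 °C and 32 °C and Per2 in WT AM, PM and 37 °C.

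Peak times of Period genes were set beside those of 4 other clock genes in WT. Per3 peaked after Nr1d1, which encodes the repressor REV-ERBα, by 5.7 ± 0.52 h in AM, 5.3 ± 0.63 h in PM and 5.2 ± 0.4 h at 37 °C, and after Dbp by 2.2 ± 0.51, 1.6 ± 0.64 and 2.2 ± 0.4 h. It peaked before Cry1, a partner of PER in repression, by 4.2 ± 0.56, 4.5 ± 0.71 and 5.3 ± 0.47 h, and stood 10.1 ± 0.61, 11.3 ± 0.74 and 10.3 ± 0.43 h from Arntl. Per2 and Per3 were 1.6 ± 0.91, 1.7 ± 1.2 and 0.4 ± 1 h apart. At 32 °C Per3 came 8.1 ± 0.97 h after Nr1d1 and 2.5 ± 0.99 h after Dbp. The sequence Nr1d1, Dbp, Per3, Cry1 was the same in the AM, PM and 37 °C courses.

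When the period was left free on a grid from 18 to 36 h, Per3 in WT gave 23.75 ± 1.61 h (jackknife SE over time points) in AM, 24 ± 1.21 h in PM, 25 ± 1.01 h at 37 °C and 22.25 ± 0.894 h at 32 °C. Per2 in WT gave 25.75 ± 4.04 h in AM, 25.5 ± 1.2 h in PM, 26.25 ± 2.62 h at 37 °C and 24.25 ± 1.68 h at 32 °C. Dbp in WT gave 23.5 ± 0.582 h in AM, 23.75 ± 1.04 h in PM, 24.75 ± 0.397 h at 37 °C and 22.25 ± 0.947 h at 32 °C. Whether the periods differ between courses was not tested. The Per3 cosine at the best period took up 77.2% of the variance in AM, 84% in PM, 84.6% at 37 °C, 75.1% at 32 °C and 16.6% at 27 °C, where the best period lay at the edge of the grid. The range of Per3 in WT was narrower over the second day than over the first in 4 of 5 courses, at 4.80 against 8.47 FPKM in AM, 6.98 against 7.95 in PM, 4.02 against 6.18 at 37 °C and 2.85 against 5.06 at 32 °C, and wider at 27 °C, at 3.20 against 2.62.

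Linear drift over the course was called in 3 of 30 tests (limma, adjusted p under 0.05). Per3 fell by 0.16 ± 0.05 (log2 per 24 h) in WT at 32 °C (adjusted p = 0.0106), and without WT 32C CT0 the fall was 0.12 (adjusted p = 0.0651). Per2 fell by 0.35 ± 0.11 in WT at 27 °C (adjusted p = 0.00705), from 5.55 and 6.41 FPKM at CT0 and CT2 to 2.30 at CT46. Per1 rose by 0.19 ± 0.06 in Bmal1-/- at 32 °C (adjusted p = 0.0184). Drift was common among all genes. In WT it was called for 13.3% in AM, 17.4% in PM, 26.6% at 37 °C, 30.2% at 32 °C and 36.8% at 27 °C, and in Bmal1-/- for 7.52%, 4.88%, 37.2%, 15.6% and 23.2%.

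Among the 3 genes, Per2 stood out by isolated high libraries. A value more than 1.5-fold above every neighbouring time point of its course occurred 10 times for Per2, 0 times for Per1 and 1 time for Per3. How often other genes, or genes as low as Per2, have such values was not computed. In WT these were AM CT30 (7.30 FPKM between 2.65 and 2.12), 32 °C CT24 (4.91), CT34 (3.27) and CT46 (4.56), and 27 °C CT34 (9.80 between 2.55 and 2.15). In Bmal1-/- they were AM CT39 (8.88 between 3.94 and 3.803), PM CT24 (8.50) and CT45 (7.25), and 27 °C CT2 (3.34) and CT34 (4.38). In the same libraries Per1 was 0.845 to 1.24 times and Per3 0.845 to 1.17 times its course median, so the other Period genes did not stand apart there. Both genotypes had such a library at CT34 at 27 °C. The cause was not tested. The Per2 SD of 1.77 FPKM in WT at 27 °C, 51.4% of the mean, and the SE of the Per2 contrasts include these libraries.

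The loop around PER was described with lists of related genes, counted by the same rules and read against all genes. In each list higher and lower mean called at 2-fold in Bmal1-/- against WT, and the shares of all genes called in either direction were 14.6% in AM, 15.6% in PM, 13.9% at 37 °C, 14.5% at 32 °C and 13.5% at 27 °C. Of 21 PER partners, kinases, phosphatases and ubiquitin ligases, all tested, 4 were higher and 3 lower in Bmal1-/- in AM, 2 and 1 in PM, 4 and 1 at 37 °C, 3 and 1 at 32 °C and 2 and 2 at 27 °C. The list medians were 0.20, 0.01, 0.21, 0.15 and 0.06 (log2), against medians between -0.02 and 0.02 over all genes, and the share called in PM, 3 of 21, was near that of all genes. The cryptochrome genes, whose products repress together with PER, were among the higher ones, with Cry1 at 1.81 ± 0.03 in AM and 1.92 ± 0.03 at 37 °C and Cry2 at 1.28 ± 0.03 in AM. Timeless, named for a fly clock gene, was at -1.65 ± 0.09 in AM and the phosphatase subunit gene Ppp1cb at -1.27 ± 0.07. From 37 to 27 °C 4 of 21 partners were called higher and 0 lower in WT and 1 and 0 in Bmal1-/-, against 13.6% and 11.7% of all genes. Csnk1e, which encodes a casein kinase that marks PER for degradation, rose by 1.69 ± 0.03 in WT and 1.33 ± 0.03 in Bmal1-/-.

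Of 15 genes known as targets of CLOCK and BMAL1 through E-boxes, 14 passed the filter. In Bmal1-/- 3 were higher and 5 lower in AM, 2 and 4 in PM, 3 and 5 at 37 °C, 3 and 3 at 32 °C and 2 and 5 at 27 °C, with list medians of -0.13, -0.09, -0.24, -0.37 and -0.78. Per3 shared its direction with Hlf (-2.78 ± 0.13 in AM), Nr1d2 (-2.71 ± 0.05) and Nr1d1 (-1.34 ± 0.04), and Per1 and Per2 theirs in AM with Cry1. In the difference between genotypes of the 27 °C change, where Per2 was negative, 4 of 14 were called negative and 0 positive, against 4.43% of all genes, and the list median was -0.14. The called genes were Bhlhe41 (-1.93 ± 0.08) and Bhlhe40 (-1.28 ± 0.05), which encode repressors that bind E-boxes, the clock repressor gene Ciart (-1.55 ± 0.10) and Tef (-1.04 ± 0.08). The rhythm test called 9 of 14 in WT AM, 8 in PM, 8 at 37 °C and 3 at 32 °C, against 3.85%, 5.61%, 4.92% and 0.253% of all genes, led by Dbp in AM (0.79 ± 0.05). Cry1, Cry2, Ciart and Usp2 are in both this list and the former.

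The 4 activator genes Arntl, Arntl2, Clock and Npas2 gave 1 higher and 0 lower in Bmal1-/- in AM, 1 and 1 in PM, 1 and 0 at 37 °C, 0 and 0 at 32 °C and 1 and 0 at 27 °C. Npas2, which can replace CLOCK, stood at 1.67 ± 0.07 in AM, and Arntl2, a Bmal1 relative, at 1.17 ± 0.09 at 37 °C. Of 15 glucocorticoid response genes 2 were higher and 3 lower in AM and in PM, 3 and 4 at 37 °C, 3 and 3 at 32 °C and 3 and 2 at 27 °C, with Ddit4 at 1.91 ± 0.04 and Sgk1 at -1.69 ± 0.06 in AM. The rhythm test of WT called 2 of these 15 in AM, 4 in PM and 4 at 37 °C, against 3.85%, 5.61% and 4.92% of all genes. Those called at 37 °C included Tsc22d3 with a peak at CT3.7 and Cebpd at CT3.9, and the peaks of the others called are not given here. A link between these rhythms and those of Period genes was not tested.

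Of 14 immediate early genes driven by CREB and SRF, 0 were higher and 2 lower in Bmal1-/- in AM, 2 and 2 in PM and, of 13 tested, 2 and 1 at 37 °C, 0 and 1 at 32 °C and 0 and 1 at 27 °C. The share called in AM was near that of all genes. From 37 to 27 °C 6 of 13 passed 2-fold downward in Bmal1-/-, with Jun at -2.18 ± 0.03 and Egr1 at -1.89 ± 0.04, and 1 of 13 passed 2-fold downward in WT, against 11.7% and 13.6% of all genes called in either direction. The list medians were -0.95 and -0.55. In the difference between genotypes of that change 3 of the 13 were called negative, Junb (-1.70 ± 0.05), Jun (-1.24 ± 0.05) and Egr2 (-1.23 ± 0.11), and Nr4a2 was called positive (1.05 ± 0.08), with a list median of -0.60 and 4.43% of all genes called. The rhythm test called 0 of them in WT AM, PM and 37 °C. Of 12 tested HSF1 targets 0 were higher and 2 lower in Bmal1-/- in AM, 0 and 3 in PM, 0 and 2 at 37 °C, 1 and 3 at 32 °C and 1 and 3 at 27 °C. The shares called in AM and at 37 °C were near those of all genes. From 37 to 27 °C 2 were called higher and 2 lower in WT and 0 and 1 in Bmal1-/-, against 13.6% and 11.7% of all genes, with the chaperone gene Hsph1 at -2.29 ± 0.06 and -2.72 ± 0.06.

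Genes with the most similar time patterns were ranked by Pearson's r on log2(FPKM + 1) after the mean of each course was removed, over the 105 libraries of a genotype and 13164 genes. The points share libraries and depth, and the values are given as a description. In WT, Per3 was nearest to Dbp (r = 0.794), Tef (0.623), Plekhn1 (0.601), Vmp1 (0.59) and Ccnl2 (0.589). Per2 was nearest to Per3 (0.58), Zfp692 (0.494), Lgals4 (0.471), Dbp (0.462) and the cell cycle kinase gene Wee1 (0.462). Among the genes nearest to Per1 were Cpsf1 (0.511), Arhgef18 (0.501), Sfn (0.5) and Irf2bp1 (0.493), none of them a clock gene. Per1 had r = 0.297 with Per2 and 0.248 with Per3. In Bmal1-/- the nearest genes included Tnks1bp1 (0.668) and Bcl9l (0.661) for Per1, the lipid exporter gene Abca1 (0.448), Ric8b (0.415) and Hivep2 (0.409) for Per2, and Ankrd16 (0.511), Zfp469 (0.479) and Ercc6 (0.477) for Per3. There Per2 and Per3 had r = 0.119, against 0.58 in WT, and the difference between these values was not tested.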

How the data were processed

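Poly(A) RNA from 212 libraries was sequenced from a single end by the authors, who deposited 1 table of FPKM values (fragments scaled to transcript length and library size) for 47631 genes. Libraries were stranded, per the labels' protocols. Cuffdiff, TopHat, TopHat2 2.1.0 and the GRCm38 build are listed in the submitters' processing notes. The sources used here do not give the annotation, strand setting or scaling. Of the gene IDs, 47217 matched GENCODE symbols of that build.

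Values were analysed as log2(FPKM + 1). The mean over the libraries of a fit had to reach 1 FPKM, which all 3 Period genes did, and genes were fitted with limma 3.58.1 (R 4.3.3, lmFit, eBayes with trend) in 2 fits, AM and PM (68 libraries, 13307 genes) and temperature (142 libraries, 13031 genes). Level, slope over time and the cosine and sine of a 24 h wave were estimated for each course. Tests were two-sided for levels and drift (t) and F tests for rhythm, with Benjamini-Hochberg adjustment over all genes tested. Calls on level needed both a 2-fold difference and an adjusted p under 0.05, and calls on rhythm, drift and differences in rhythm the latter alone. The labels share no replicate numbers between groups. The fit was tested on simulated data with known changes. Depth was estimated from 1357 genes, 94.5% of whose low values lay within 0.15 of whole reads. Tables and plots used Python 3.11.15, numpy 2.4.6, pandas 2.3.3, scipy 1.17.1 and matplotlib 3.10.9.

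The members and gene lists were chosen with earlier results of these data known. Named are the 3 genes, at most 4 genes of each list (those that changed most, or with the smallest rhythm p), and the 5 (WT) or 3 (Bmal1-/-) genes of highest r, and some genes that these rules pick are not reported here. The rhythm contrasts between temperatures and the setting without isolated high Per2 libraries were added after the data were seen. Other settings were a pseudocount of 0.1 FPKM, no filter, median-of-ratios scaling, the CT14 pair included, no linear term, 1 fit over all courses, time point as a block, other periods, and each library left out. Where libraries were left out, singly or as the isolated high Per2 libraries, the Period genes alone were refitted. The prior variance from limma and the p-values of all other genes were kept from the full fit.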

Additional observations from a re-analysis of the deposited data

Results flagged for a closer look

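Differences between groups in the response of a Period gene, each tested as a contrast in limma over all genes, were as follows. The change from 37 to 27 °C differed between genotypes for Per2 by -1.29 (log2), for Per1 by -0.19 and for Per3 by -0.20, and the change to 32 °C for Per2 by -0.54. Those of Per1 and Per3 were under 2-fold, and that of Per3 turned to 0.14 with a pseudocount of 0.1 FPKM. The rhythm of Per3 differed between genotypes in AM by a cosine and sine distance of 0.52 and at 37 °C by 0.35. The rhythm in WT differed between AM and PM by 0.97 for Per3 and 0.87 for Per2. The Per3 rhythm in WT differed from that at 37 °C by 0.43 at 27 °C and by 0.39 at 32 °C.

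The libraries left out of the results above carried a signal of their own. Per3 was 2.84 FPKM in the CT14 library labelled WT at 27 °C and 13.6 FPKM in the one labelled Bmal1-/-, each inside the range of the other genotype. In the same pair Cdkn1a was 109 and 3.87 FPKM and Hoxa9 0.083 and 39.1 FPKM, against ranges in the other 27 °C libraries of 3.07 to 7.12 (WT) and 97.8 to 136 (Bmal1-/-) for Cdkn1a and 31.8 to 48.5 and 0 to 0.114 for Hoxa9.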

How the results depend on the processing

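Of 120 results on the 3 genes, 25 were called. Under every alternative run, 93 of the 120 kept their side of the threshold and, for levels and drifts, their direction. Most of the 120 were not called, and those that stayed uncalled count as kept. Peak times of rhythms were not compared. Among the calls kept were the lower level of Per3 in Bmal1-/- in all 5 courses, the Per2 interaction at 27 °C and the Per3 rhythms in WT AM, PM and 37 °C. The time point block and the fit without a linear term changed no call. For the others the cause was not tested. With a pseudocount of 0.1 FPKM, Per2 in AM passed 2-fold (1.01), as did Per3 in Bmal1-/- from 37 to 27 °C (1.34), the Per3 genotype difference of the temperature change turned positive (0.14 at 27 °C and 0.19 at 32 °C), the Per3 rhythm (0.21) and drift (-0.17) in WT at 32 °C were lost, and Per3 in Bmal1-/- at 37 °C gained a rhythm (0.20) and a drift (0.18). With median-of-ratios scaling the changes to 27 °C of Per3 in WT (0.85) and Per1 in Bmal1-/- (0.87) fell short of 2-fold, the Per3 difference at 32 °C turned to 0.035 and the Per2 rhythm in WT PM (0.38) was lost, as it was without the filter (0.38), at 22 h (0.32) and with 12 h terms (0.36). The Per2 rhythm in WT at 37 °C was lost without the filter (0.31), at 22 h (0.26) and with the CT14 pair (0.31), and the Per3 rhythm in WT at 32 °C at 26 h (0.17), with the CT14 pair (0.19) and without the isolated Per2 libraries (0.19). A single fit over all courses called the Per3 genotype difference of rhythm in PM (0.39) and the Per3 drift in WT AM (-0.19). With the CT14 pair, whose labels are in doubt, the Per3 contrasts of rhythm between genotypes at 37 °C (0.35) and against 37 °C at 27 °C (0.27) and 32 °C (0.39) and the drifts of Per3 in WT at 32 °C (-0.16) and Per2 in WT at 27 °C (-0.27) were lost, the Per3 rhythm difference between genotypes at 27 °C (0.45) and the Per3 drift in Bmal1-/- at 27 °C (-0.26) were called, and the Per3 drift in WT at 27 °C turned to 0.13. Without the isolated Per2 libraries the Per2 rhythm contrast of 27 with 37 °C (0.42) and the Per2 drift in Bmal1-/- at 37 °C (0.18) were called. Those libraries were picked by high Per2, which lowers the Per2 scatter, so these calls add no support.

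With each library left out in turn, calls or signs changed within these ranges: the Per2 rhythm in WT PM 0.32 to 0.41 and at 37 °C 0.29 to 0.34, the Per2 contrast of 27 with 37 °C 0.31 to 0.42, the Per3 rhythm difference between genotypes in PM 0.36 to 0.43, the Per3 temperature difference at 32 °C -0.032 to 0.0037, and drifts of Per3 in WT AM -0.23 to -0.11, WT 37 °C -0.052 to 0.014, WT 32 °C -0.17 to -0.12, Bmal1-/- PM -0.096 to 0.0099 and Bmal1-/- 37 °C 0.061 to 0.16, and of Per1 in WT 27 °C -0.035 to 0.044 and Bmal1-/- 27 °C -0.014 to 0.059. No paired analysis was possible because the labels give no replicate numbers that tie libraries to a shared culture; the time point that courses share was fitted as a block instead.

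Not every setting covered all 40 comparisons. The CT14 pair was added to the temperature fit alone. The fit without a linear term held no drift tests, and other periods were run for rhythm tests alone. The number of all genes called moved by over 1.5 times in 11 comparisons with the CT14 pair and in 11 without a linear term. At 26 h it did so in 10 and at 22 h in 9. Without the filter it did so in 7, and with the smaller pseudocount or a single fit in 4 each. Examples are the genotype difference of rhythm at 37 °C (795, and 17 without a linear term) and at 27 °C (196, and 2141 with the CT14 pair) and the rhythm in Bmal1-/- PM (402, and 6 at 22 h). Depth is known only as an estimate. Course medians ran from 1.38 to 4.18 FPKM for Per2 and from 1.09 to 2.70 for Bmal1-/- Per3, with single libraries outside these bounds. At such levels the pseudocount sets the size of a fold.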
